A study of Mus musculus with 20 samples.

Results

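The 9 genes described here, Otp, Isl1, Lhx1, Lhx3, Lhx5, Pou4f1, Tlx3, Mnx1 and Evx1, encode homeodomain transcription factors that mark different classes of neuron. They were taken by name from 35975 genes, by summing the estimated counts of their transcripts, and all 9 were among the 18555 genes with enough counts to be tested. The libraries are from bulk polyadenylated RNA of mouse E14 embryonic stem cells (ES-E14TG2a) of genotype TKO or WT. D0 is the stem cell culture in serum and LIF, and D2, D4, D6 and D8 are days of differentiation towards neural progenitor cells (NPC) on laminin-coated plates in plain N2B27 medium. Each of the 10 groups, 5 of TKO and 5 of WT, held 2 libraries, which the labels call biological replicates without saying whether they were separate cultures, so a p-value here measures the spread between such libraries. The labels neither define TKO nor say whether it is 1 clone. All comparisons asked how the levels of these genes differed between TKO and WT on a day, or between successive days within a genotype.

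Neurons of the spinal cord, hindbrain and hypothalamus take on class identity through combinations of homeodomain proteins that switch on as cells leave the cell cycle. Isl1, Lhx1, Lhx3 and Lhx5 are LIM homeodomain proteins, which bind DNA through the homeodomain and the cofactor Ldb1 through the LIM domains. Isl1 together with Lhx3 specifies motor neurons, in which Mnx1 is also active, and Lhx3 without Isl1 marks a class of ventral interneurons. Otp is required for neuroendocrine neurons of the hypothalamus, Evx1 marks commissural interneurons of the ventral spinal cord, Pou4f1 acts with Isl1 in sensory neurons, and Tlx3 selects an excitatory fate in dorsal spinal neurons. Several are also known outside neurons: Lhx1 and Evx1 in the gastrulating embryo, Mnx1 and Isl1 in the pancreas, and Isl1 in heart progenitors.

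DNA methylation falls on CpG dinucleotides, so the CpG content of the promoters is given first. Methylation was not measured in these RNA libraries, and its part in the levels below was not tested. RefSeq promoter windows of GRCm38.p6, running from 250 bases before to 50 after a transcription start, were matched by symbol for 8 of the 9 genes (all but Lhx5), with a pair of windows for Lhx3. The Pou4f1 window held 57 CpG, a number that 0.152% of all 32851 windows reach, and the median window held 7. Counts were 37 in Isl1, 31 in Lhx1, 28 and 13 in the Lhx3 windows, 26 in Mnx1, 20 in Otp, 18 in Tlx3 and 12 in Evx1, a number that 39.6% of windows reach. The homeodomain core ATTA, read on both strands, occurred 5 times in the Tlx3 window and 0 times in that of Pou4f1, and 58.0% of all windows held it. The 200 bases furthest upstream are printed 5′ to 3′ on the strand of the gene for the window richest in CpG (Pou4f1, chr14:104468050-104468249, minus strand), the poorest (Evx1, chr6:52313248-52313447, plus strand) and that of the gene with the greatest fall in TKO (Otp, chr13:94875386-94875585, plus strand). Capitals mark each CpG.
Pou4f1: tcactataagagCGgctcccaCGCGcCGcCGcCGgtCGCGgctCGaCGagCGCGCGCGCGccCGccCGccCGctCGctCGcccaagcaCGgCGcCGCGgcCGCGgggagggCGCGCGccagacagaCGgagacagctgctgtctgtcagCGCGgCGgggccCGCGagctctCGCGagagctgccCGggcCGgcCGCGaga
Evx1: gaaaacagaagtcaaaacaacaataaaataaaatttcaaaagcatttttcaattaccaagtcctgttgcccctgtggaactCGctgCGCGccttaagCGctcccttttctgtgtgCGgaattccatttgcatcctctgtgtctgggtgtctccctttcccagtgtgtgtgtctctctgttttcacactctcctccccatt
Otp: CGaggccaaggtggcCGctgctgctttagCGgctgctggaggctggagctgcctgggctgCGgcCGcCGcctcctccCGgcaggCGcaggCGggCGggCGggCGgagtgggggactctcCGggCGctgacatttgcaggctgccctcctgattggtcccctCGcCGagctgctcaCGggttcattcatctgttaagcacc

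Libraries held 26015282 to 38074768 estimated counts, so that 3 counts, taken here as the floor, were 0.0853 to 0.12 CPM. CPM are counts per 1000000 counts of a library, its total first adjusted by TMM, a normalization between libraries. Dnmt1, the maintenance DNA methyltransferase, stood at 74.8 and 82.5 CPM in TKO D0, against 482 and 401 CPM in WT D0 (log2 fold change -2.49, adjusted p = 1.62e-12 by the edgeR quasi-likelihood test). The de novo enzyme Dnmt3a stood at 22.2 and 24.4 CPM in TKO D0 and 104 and 93.5 CPM in WT D0, and Dnmt3b at 26.2 and 28.2 CPM in TKO D0 and 76.7 and 89.7 CPM in WT D0. Dnmt3l, their cofactor without catalytic activity, went the other way, at 542 and 532 CPM in TKO D0 and 142 and 186 CPM in WT D0 (log2 fold change 1.71, adjusted p = 2.92e-07). Of 8 DNA methyltransferase and Tet genes, 2 were higher and 3 lower in TKO D0, where 39.3% of all genes were called (19.4% higher, 19.9% lower). Between the WT D0 replicates the chi-square per degree of freedom was 29.5, against 2.98 to 11.3 within the other groups, and each TKO against WT result at D0 rests on this pair. Summed over 12 pluripotency genes, TKO D0 libraries held 6440 and 6370 CPM and WT D0 libraries 7200 and 7430 CPM. At D8, 16 generic neuron genes summed to 1610 and 1580 CPM in TKO and 5730 and 5820 CPM in WT.

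More of these factors were higher than lower in TKO up to D6, and more were lower than higher in TKO at D8. A gene is called higher or lower only where it passed the edgeR quasi-likelihood test at a Benjamini-Hochberg adjusted p under 0.05 over all 18555 genes. At D0, 5 of the 9 genes were higher in TKO (Pou4f1, Tlx3, Isl1, Mnx1 and Lhx1) and 0 lower, where 39.3% of all genes were called (19.4% higher, 19.9% lower). At D2, 6 were higher (the same 5 and Lhx3) and 0 lower, with 35.3% of all genes called (18.4% higher, 16.9% lower), and at D4, 4 were higher (Pou4f1, Tlx3, Isl1 and Mnx1) and 0 lower, with 28.4% called (15.1% higher, 13.2% lower). At D6, 6 were higher (Pou4f1, Tlx3, Mnx1, Lhx1, Lhx3 and Lhx5) and 1 lower (Otp), with 41.3% called (20.9% higher, 20.3% lower). At D8, 2 were higher (Pou4f1 and Mnx1) and 5 lower (Otp, Isl1, Evx1, Lhx1 and Lhx5), where 67.5% of all genes were called (35.8% higher, 31.8% lower). The median log2 fold change over the 9 genes was 0.83, 1.66, 1.16, 1.10 and -2.36 from D0 to D8, beside medians of all genes within 0.04 of 0. The 7 of 9 called at D8 lie near that day's background share. Without WT D0 replicate 2 the D0 count was 2, Pou4f1 and Tlx3. At D4 the number of all genes called was 5261, or 3358 without TKO D4 replicate 2.

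**Figure D1:**
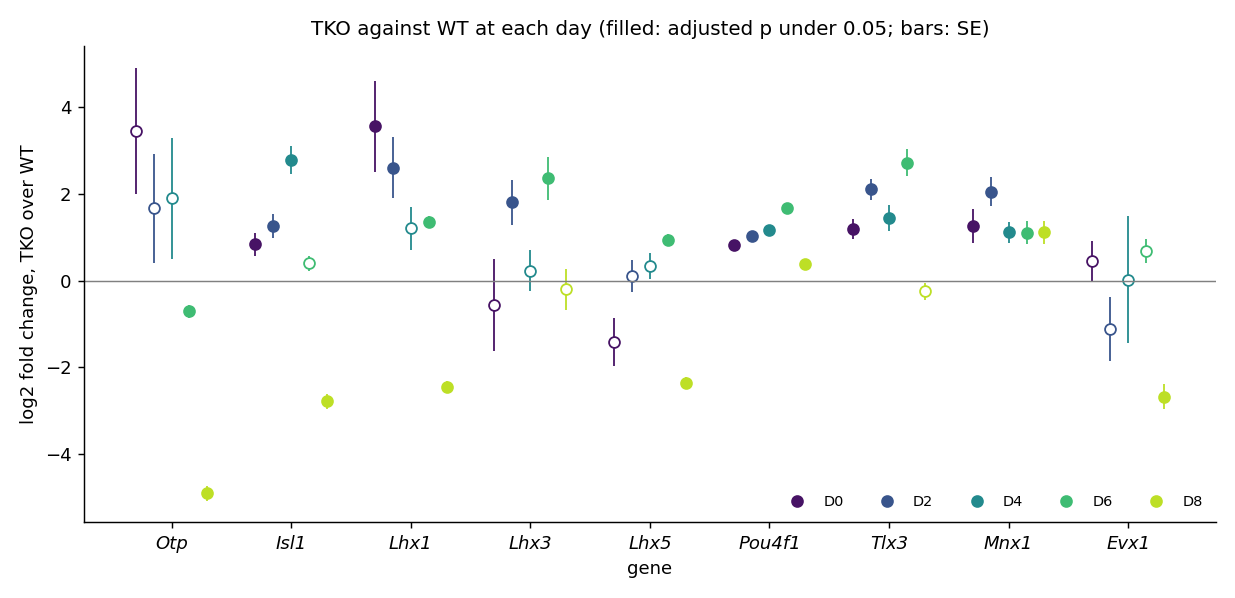
Log2 fold change of TKO over WT (y axis) for each of the 9 genes at D0, D2, D4, D6 and D8, with bars for the standard error and filled points where the adjusted p was under 0.05. Most filled points lie above 0 up to D6, and at D8 Otp (-4.89), Isl1 (-2.78), Evx1 (-2.67), Lhx1 (-2.45) and Lhx5 (-2.36) lie below it. The Otp points of D0 to D4, the Lhx3 point of D0 and the Evx1 point of D4 rest on 12 counts or fewer per group.

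Otp (ENSMUSG00000021685.11, chr13:94875602-94885130, plus strand, GRCm38) came on between D4 and D6 in both genotypes and then parted. It was at 0.418 CPM or below in each library of D0 to D4. At D6 it stood at 16.0 and 21.5 CPM in TKO, against 33.4 and 27.5 CPM in WT, and was lower in TKO by a log2 fold change of -0.71 (SE 0.156, adjusted p = 0.00144). At D8 it stood at 8.11 and 8.21 CPM in TKO, against 242 and 242 CPM in WT, the greatest fall of the 9 genes (log2 fold change -4.89, SE 0.173, adjusted p = 1.55e-13). The groups did not overlap on either day. At D0, 12 Otp counts in TKO, all in replicate 1, stood against 1 in WT, a count ratio of 13.3 (95% counting interval 1.97 to 569) that did not pass (adjusted p = 0.0717), but did pass without TKO D0 replicate 2 (adjusted p = 0.0065), in DESeq2 (0.0378) and with no low-count filter (0.00284). In these bulk samples, fewer cells of a neuron class and less RNA per cell cannot be told apart.

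Lhx1 and Lhx5, close relatives active together in many inhibitory spinal interneurons and in Purkinje cells, both stood higher in TKO at D6 and lower in TKO at D8. Lhx1 (ENSMUSG00000018698.15, chr11:84518284-84525535, minus strand) stood at 21.5 and 25.5 CPM in TKO D6, against 10.4 and 7.97 CPM in WT D6 (log2 fold change 1.35, SE 0.143, adjusted p = 7.91e-07). At D8 it stood at 17.7 and 18.9 CPM in TKO, against 99.8 and 101 CPM in WT (log2 fold change -2.45, SE 0.135, adjusted p = 3.43e-11). The order of the genotypes thus turned between D6 and D8, with no overlap on either day. Lhx5 (ENSMUSG00000029595.9, chr5:120431699-120441223, plus strand) turned in the same way. It stood at 24.8 and 33.4 CPM in TKO D6, against 16.6 and 13.7 CPM in WT D6 (log2 fold change 0.94, SE 0.132, adjusted p = 2.1e-05), and at 12.5 and 12.1 CPM in TKO D8, against 62.5 and 63.9 CPM in WT D8 (log2 fold change -2.36, SE 0.135, adjusted p = 5.54e-11).

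Before D6 both were low, at most 0.496 CPM for Lhx1 and 1.06 CPM for Lhx5 in any library, and at D4 Lhx5 held 61 counts in TKO and 49 in WT. Lhx1 held 13 counts in TKO D0 and 1 in WT D0, a ratio of 14.4 (95% counting interval 2.17 to 613). This passed (adjusted p = 0.0125), as did D2 (0.480 and 0.361 CPM in TKO, 0.0775 and 0.0582 CPM in WT, adjusted p = 0.00741). Lhx1 was under the low-count filter with the D0 groups fitted alone, and its D0 log2 fold change of 3.55 was 5.88 without WT D0 replicate 1. The D0 call was lost without replicate 2 of TKO (2.83, adjusted p = 0.132) or of WT (2.72, 0.098), and the D2 call without replicate 1 of TKO (0.0615) or replicate 2 of WT (0.0746). At D4 the difference for Lhx1 did not pass (log2 fold change 1.20, adjusted p = 0.0766), but did pass without WT D4 replicate 2 (2.41, adjusted p = 0.0182), in DESeq2 (1.24, 0.0424) and with no low-count filter (1.20, 0.0338). For Lhx5 no difference passed at D0, D2 or D4, where the adjusted p was 0.0518, 0.853 and 0.433. At D0 its log2 fold change of -1.41 did pass without TKO D0 replicate 1 (-2.35, adjusted p = 0.0397), with no low-count filter (0.0355) and with counts rebuilt from TPM (0.041).

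Isl1 (ENSMUSG00000042258.13, chr13:116298281-116309689, minus strand), the motor and sensory neuron factor, was transcribed at a low level throughout in TKO. From D0 to D4 it ran between 1.55 and 2.20 CPM in TKO libraries. In WT it fell at D4, to 0.207 and 0.337 CPM, against 0.852 and 0.670 CPM at D2 (log2 fold change -1.46, adjusted p = 0.00314). The D4 difference was the widest up to D6, with 2.20 and 1.55 CPM in TKO and 0.207 and 0.337 CPM in WT (log2 fold change 2.78, SE 0.321, adjusted p = 4.76e-06). At D2 Isl1 was also higher in TKO (log2 fold change 1.25, adjusted p = 0.00197). The smaller D0 difference (log2 fold change 0.83, adjusted p = 0.0153) lost its call without TKO D0 replicate 1 (0.083), WT D0 replicate 1 (0.0545) or WT D0 replicate 2 (0.0703), with counts rebuilt from TPM and mean length (0.251) and with the D0 groups fitted alone (0.0552). At D6 the libraries held 8.03 and 10.5 CPM in TKO and 7.79 and 6.25 CPM in WT, which did not pass (log2 fold change 0.40, adjusted p = 0.072) but did without TKO D6 replicate 1 (0.0279) or WT D6 replicate 1 (0.0498). At D8 they held 4.47 and 4.20 CPM in TKO and 27.1 and 32.4 CPM in WT (log2 fold change -2.78, SE 0.174, adjusted p = 1.82e-10), and the groups lay far apart.

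Lhx3 (ENSMUSG00000026934.15, chr2:26200212-26208289, minus strand), the partner of Isl1 in motor neurons, stayed at 1.93 CPM or below in every library. It stood at 1.03 and 0.842 CPM in TKO D2, against 0.271 and 0.262 CPM in WT D2 (log2 fold change 1.80, adjusted p = 0.0122), a call lost without TKO D2 replicate 1 (adjusted p = 0.0734), WT D2 replicate 1 (0.0565) or WT D2 replicate 2 (0.082). It stood at 1.01 and 1.93 CPM in TKO D6, against 0.454 and 0.0993 CPM in WT D6 (log2 fold change 2.35, SE 0.489, adjusted p = 0.000878). That value was 3.82 without WT D6 replicate 1 and 1.67 without WT D6 replicate 2, and passed in both. At D8 the libraries held 0.594 and 0.551 CPM in TKO and 0.626 and 0.689 CPM in WT, and the difference did not pass (log2 fold change -0.20, SE 0.473, adjusted p = 0.727). Of the 349.0 Lhx3 counts in all libraries, 72.3 (20.7%) were on protein-coding transcripts, and most of the others were on Lhx3-203, which is annotated with a retained intron. In TKO D6, where Lhx3 was highest, Lhx3-203 held 47.7% of 90.0 counts, its lowest share in any group. In TKO D2 it held 50.0 of 51.0 counts (98.0%), and in WT D2 9.0 of 16.0 (56.2%). The D2 difference thus rests mostly on this transcript.

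Evx1 (ENSMUSG00000005503.8, chr6:52313498-52318378, plus strand), the commissural interneuron factor, was present in both genotypes as stem cells, near 0 at D4 and back at D6. It stood at 0.453 and 0.879 CPM in TKO D0 and 0.510 and 0.455 CPM in WT D0, which overlapped. At D4 each genotype held 2 counts. At D6 it stood at 4.14 and 6.42 CPM in TKO and 3.36 and 3.18 CPM in WT (log2 fold change 0.68, SE 0.285, adjusted p = 0.0643), which did not pass, but did with the D6 groups fitted alone (0.0409), with no low-count filter (0.0133) and without TKO D6 replicate 1 (0.97, 0.028). At D8 it stood at 1.47 and 2.21 CPM in TKO, against 11.2 and 12.4 CPM in WT, and was lower in TKO by a log2 fold change of -2.67 (SE 0.297, adjusted p = 3.18e-07).

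Pou4f1 (ENSMUSG00000048349.9, chr14:104461676-104467999, minus strand), the sensory neuron factor, was higher in TKO on every day. It also had the highest TPM of the 9 genes at D0, D2 and D4 in both genotypes. TKO libraries held 20 and 20.9 CPM at D0, 19.1 and 20.4 at D2, 34.6 and 38.5 at D4, 29.2 and 36.3 at D6 and 29.4 and 27.2 at D8. WT libraries held 11.8 and 11.4 CPM at D0, 9.72 and 9.61 at D2, 15.2 and 17.5 at D4, 10.6 and 10.1 at D6 and 22.8 and 21.1 at D8. The genotypes did not overlap in CPM on any day. In TPM they overlapped at D8, with 22.2 and 18.3 in TKO and 19.0 and 18.5 in WT. The log2 fold change was 0.82, 1.03, 1.16, 1.66 and 0.37 from D0 to D8, with adjusted p values of 1.05e-05, 1.4e-06, 1.65e-07, 1.36e-09 and 0.00348. Pou4f1-202, a processed transcript, held 12.5% to 16.8% of its counts in each group.

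Tlx3 (ENSMUSG00000040610.7, chr11:33200752-33203589, minus strand), the selector of excitatory dorsal neurons, was higher in TKO from D0 to D6 and overlapped WT at D8. TKO libraries held 4.14 and 4.06 CPM at D0, 5.04 and 5.37 at D2, 1.60 and 1.26 at D4, 2.43 and 2.14 at D6 and 5.17 and 5.76 at D8. WT libraries held 1.50 and 2.11 CPM at D0, 1.12 and 1.28 at D2, 0.385 and 0.674 at D4, 0.333 and 0.364 at D6 and 7.74 and 5.24 at D8. The genotypes overlapped only at D8. The log2 fold change was 1.18, 2.10, 1.44 and 2.71 at D0, D2, D4 and D6 (adjusted p = 0.000597, 3.28e-06, 0.0017 and 2.25e-06), and -0.25 at D8 (SE 0.203, adjusted p = 0.292).

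Mnx1 (ENSMUSG00000001566.9, chr5:29473034-29478470, minus strand), the motor neuron factor, was the other gene called higher in TKO on every day, at low levels. TKO libraries held 0.731 and 0.512 CPM at D0, 1.47 and 1.24 at D2, 3.12 and 3.67 at D4, 2.52 and 2.04 at D6 and 2.06 and 2.45 at D8. WT libraries held 0.287 and 0.227 CPM at D0, 0.232 and 0.408 at D2, 1.60 and 1.53 at D4, 1.00 and 1.13 at D6 and 1.25 and 0.839 at D8. Both genotypes were highest at D4. The log2 fold change was 1.26, 2.04, 1.11, 1.10 and 1.11 from D0 to D8 (adjusted p = 0.0151, 0.000144, 0.00243, 0.00272 and 0.00118). The D0 call was lost without TKO D0 replicate 1 (adjusted p = 0.16) or WT D0 replicate 2 (0.0911) and with the D0 groups fitted alone (0.072). The protein-coding transcript Mnx1-202 held 62.0%, 59.9% and 45.9% of the Mnx1 counts in TKO D4, D6 and D8, against 42.7%, 40.8% and 37.9% in WT D4, D6 and D8, shares that were not tested.

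**Figure D2:**
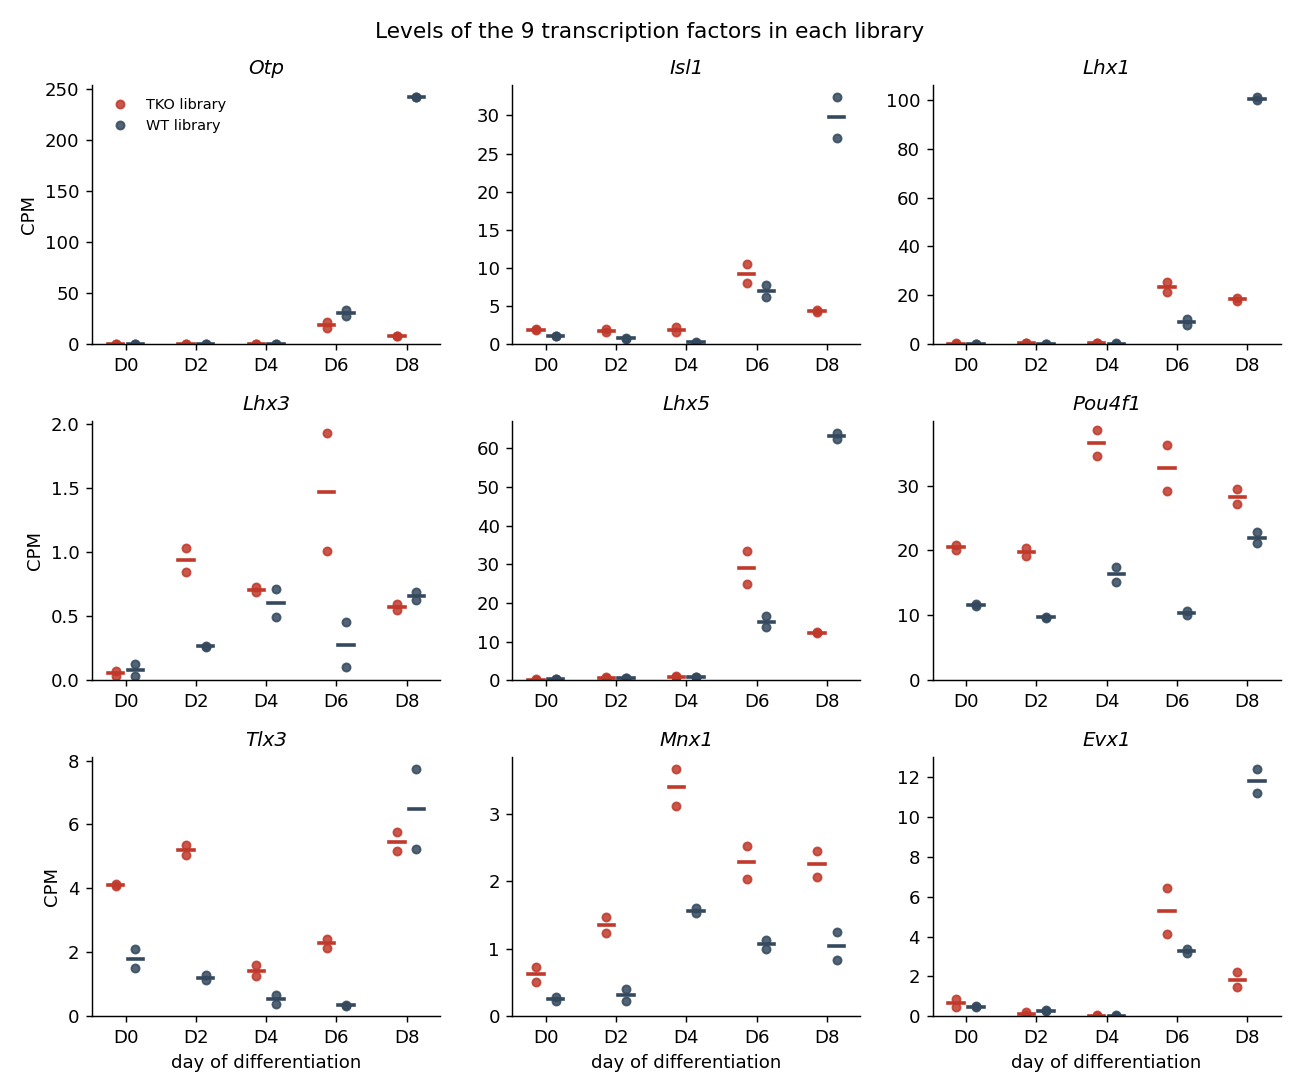
Level of each of the 9 genes in CPM (y axis, linear, with its own scale in each panel) by day of differentiation (x axis), with 1 point for each TKO or WT library and a short bar at the mean of the 2 libraries of a group. The bars of Otp, Isl1, Lhx1, Lhx5 and Evx1 are highest at D6 in TKO and at D8 in WT, and those of Pou4f1 and Mnx1 are higher in TKO on all 5 days.

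The last step, D8 against D6, went in opposite directions in the genotypes for the genes that came on at D6. In TKO, 6 genes fell (Otp, Isl1, Lhx1, Lhx3, Lhx5 and Evx1) and 1 rose (Tlx3), with 50.0% of all genes called (25.5% higher, 24.5% lower). In WT, 7 genes rose (Otp, Isl1, Lhx1, Lhx5, Evx1, Tlx3 and Pou4f1) and 0 fell, with 57.0% called (26.6% higher, 30.4% lower). The log2 fold changes in TKO were -1.19 for Otp, -1.09 for Isl1, -0.36 for Lhx1, -1.34 for Lhx3, -1.24 for Lhx5, -1.51 for Evx1 and 1.25 for Tlx3. In WT they were 2.99 for Otp, 2.08 for Isl1, 3.44 for Lhx1, 2.06 for Lhx5, 1.85 for Evx1, 4.21 for Tlx3 and 1.09 for Pou4f1. The TKO calls of Lhx1 (adjusted p = 0.0361) and Lhx3 (0.0182) were lost without TKO D6 replicate 2 (0.283 and 0.235), TKO D8 replicate 1 (0.176 and 0.0717) or TKO D8 replicate 2 (0.0762 and 0.0965), and Lhx1 also with counts rebuilt from TPM (0.108). Pou4f1 in TKO (log2 fold change -0.21, adjusted p = 0.0867) passed without TKO D6 replicate 1 (0.00961). Lhx3 in WT (1.21, adjusted p = 0.0567) passed without WT D6 replicate 1 (2.67, 0.00485), with no low-count filter (0.0487) and with counts rebuilt from TPM (0.0196). Mnx1 gave -0.02 in TKO and -0.02 in WT, and neither passed.

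The difference between the 2 steps was itself tested as an interaction, the D8 over D6 change in TKO minus that in WT. It was negative and passed for 8 of the 9 genes, where 49.9% of all genes passed (25.5% positive, 24.4% negative). It was -4.18 for Otp (SE 0.228, adjusted p = 3.98e-10), -3.80 for Lhx1 (adjusted p = 2.55e-10), -3.36 for Evx1 (2.58e-06), -3.30 for Lhx5 (6.07e-10) and -3.17 for Isl1 (1.12e-08). Tlx3 rose in both genotypes and its interaction was -2.95 (adjusted p = 4.26e-06). That of Pou4f1 was -1.30 (adjusted p = 9e-07). Lhx3 gave -2.55 (adjusted p = 0.00476), or -4.01 without WT D6 replicate 1 and -1.86 without WT D6 replicate 2. The interaction of Mnx1 was 0.00 (SE 0.37, adjusted p = 1). This test shares its D8 and D6 libraries with the steps and the genotype comparisons above. It was also negative and passed for 16 of 16 generic neuron genes (median -3.11) and 18 of 22 progenitor domain factors (median -1.68). The same held for 12 of 17 ventral and 11 of 16 dorsal neuron factors, and 0 passed as positive in these lists. Of 12 pluripotency genes, 5 passed as positive and 2 as negative. Beside it, the summed level of the 16 generic neuron genes was 1610 and 1580 CPM in TKO D8 against 2090 and 2730 CPM in TKO D6, and 5730 and 5820 CPM in WT D8 against 1210 and 1100 CPM in WT D6. The part of this in the change of the 9 genes was not tested.

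**Figure D3:**
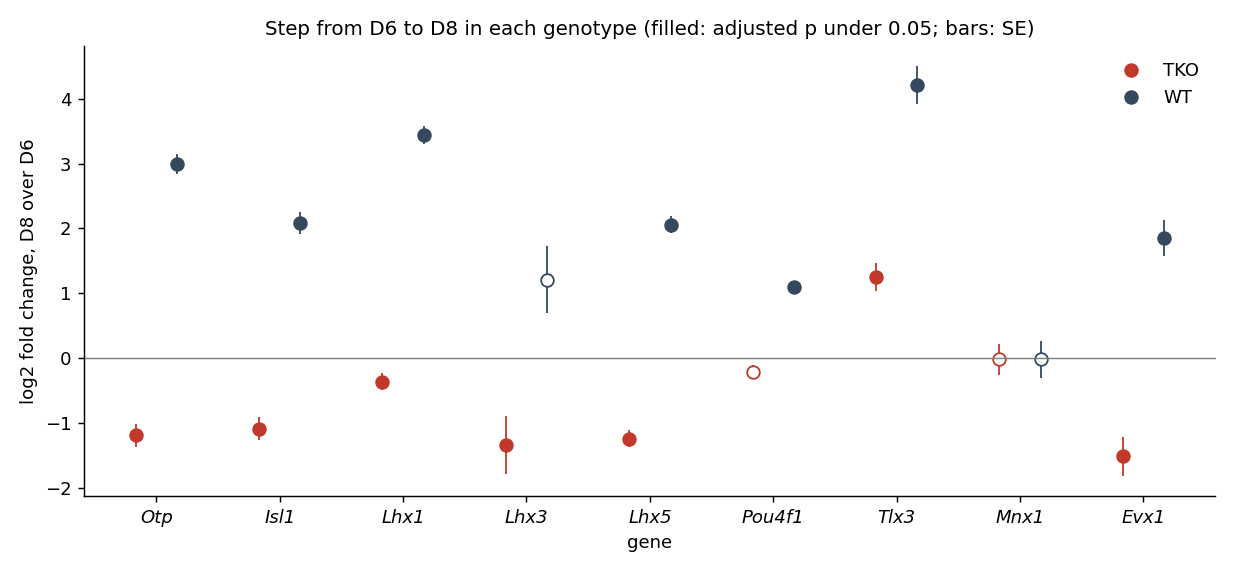
Log2 fold change of D8 over D6 (y axis) of each of the 9 genes in TKO and WT, with bars for the standard error and filled points where the adjusted p was under 0.05. TKO lies below 0 and WT above 0 for Otp, Isl1, Lhx1, Lhx3, Lhx5, Pou4f1 and Evx1; Tlx3 lies above 0 in both, and Mnx1 lies at -0.02 in both.

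The step before it, D6 against D4, was when most of these genes came on. In TKO, Otp, Isl1, Lhx1, Lhx5, Evx1 and Tlx3 rose (6 of 9) and 0 fell (48.1% of all genes called, 24.7% higher and 23.4% lower), and in WT, the first 5 of these rose and Pou4f1 fell (53.4% called, 27.3% higher and 26.0% lower). Otp held 1936 counts in WT D6 and 2 in WT D4, a ratio of 1020 (95% counting interval 281 to 8400), and its fitted log2 fold change in TKO was 7.20. Evx1 held 326 counts in TKO D6 and 2 in TKO D4, a ratio of 169 (46.3 to 1400), and 207 counts in WT D6 and 2 in WT D4, a ratio of 109 (29.7 to 904). The log2 fold change of Lhx1 was 5.57 in TKO and 5.42 in WT, that of Lhx5 4.95 in TKO and 4.35 in WT, and that of Isl1 2.29 in TKO and 4.68 in WT. With few counts at D4, the WT value of Lhx1 was 4.76 without WT D4 replicate 1 and 6.63 without WT D4 replicate 2. The fitted values of Otp (9.80) and Evx1 (6.58) in WT were 12.88 and 5.65 without WT D4 replicate 1 and 8.92 and 9.66 without WT D4 replicate 2, and that of Evx1 in TKO (7.25) was 10.34 without TKO D4 replicate 1 and 6.42 without TKO D4 replicate 2. With counts rebuilt from TPM the rises were smaller, at 7.72 in WT and 6.37 in TKO for Otp. They were then 4.67 for Lhx1 in WT and 6.66 for Evx1 in TKO. Tlx3 rose in TKO by 0.67 (adjusted p = 0.0323), a call lost without replicate 2 of TKO D4 (0.194) or replicate 1 or 2 of TKO D6 (0.159 and 0.0549), and in DESeq2 (0.0515). Lhx3 in TKO (1.04, adjusted p = 0.055) passed without TKO D6 replicate 1 (0.0245), with relative log expression scaling (0.0499), with no low-count filter (0.042) and with counts rebuilt from TPM (0.0384). Without TKO D6 replicate 2, Pou4f1 fell in TKO (log2 fold change -0.33, adjusted p = 0.0192), where with all libraries it did not pass (-0.16, 0.196). Without WT D6 replicate 1, Lhx3 fell in WT (-2.55, adjusted p = 0.00822), where with all libraries it did not pass (-1.08, 0.0948).

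Earlier steps moved fewer of them. At D4 against D2, Mnx1 and Pou4f1 rose and Tlx3 fell in TKO (61.9% of all genes called, 31.6% higher and 30.3% lower), with log2 fold changes of 1.31, 0.89 and -1.86. Mnx1 and Pou4f1 also rose in WT, by 2.23 and 0.75, and Evx1, Tlx3 and Isl1 fell (61.9% called, 31.8% higher and 30.1% lower). The falls of Evx1 (2 counts in WT D4 and 17 in WT D2) and Tlx3 (log2 fold change -1.19, adjusted p = 0.00306) lost their calls without WT D4 replicate 1 (0.0873 and 0.057), where Lhx1 gained one (0.0172). The fitted log2 fold change of Evx1 was -3.07 there, or -2.14 without WT D4 replicate 1 and -6.15 without WT D4 replicate 2. At D2 against D0 in TKO, Lhx3, Lhx5 and Mnx1 rose and Evx1 fell (53.6% called, 26.6% higher and 26.9% lower). Lhx3 held 51 counts in TKO D2 and 3 in TKO D0, a ratio of 17.6 (5.69 to 88.2). Of the TKO D2 counts, 50.0 were on Lhx3-203, annotated with a retained intron. The log2 fold change was 2.11 for Lhx5, or 3.03 without TKO D0 replicate 1. Mnx1 (1.12, adjusted p = 0.00485) and Evx1 (-2.32, 0.00477) lost their calls without TKO D0 replicate 2 (0.0644 and 0.0694), and Evx1 also without TKO D2 replicate 2 (0.0546). The value of Evx1 was -1.79 without TKO D0 replicate 2, -1.68 without TKO D2 replicate 2 and -3.92 without TKO D2 replicate 1. At D2 against D0 in WT, 0 of the 9 passed in edgeR or DESeq2 (54.7% of all genes called by edgeR, 25.8% higher and 28.9% lower), and 3 had an unadjusted p under 0.05. Without WT D0 replicate 1 Tlx3 passed there (adjusted p = 0.0303), and without WT D0 replicate 2 Lhx3 did (0.0433).

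Levels of different genes can be set side by side only per length, in TPM, counts divided by transcript length and scaled to 1 fixed sum per library. At D8 the order in TKO was Pou4f1 (20.3 ± 2.74 TPM, SD, n = 2), Lhx1 (10.7 ± 2.35), Lhx5 (7.64 ± 0.164), Tlx3 (6.29 ± 0.512), Otp (5.59 ± 0.212), Isl1 (5.04 ± 0.547), Mnx1 (1.82 ± 0.233), Evx1 (1.09 ± 0.354) and Lhx3 (0.487 ± 0.0345), and no neighbours in it overlapped. In WT it was Otp (209 ± 2.56 TPM, SD, n = 2), Lhx1 (80.6 ± 2.84), Lhx5 (50.2 ± 0.831), Isl1 (41.5 ± 4.74), Pou4f1 (18.8 ± 0.316), Tlx3 (9.57 ± 2.59), Evx1 (8.98 ± 0.802), Mnx1 (1.09 ± 0.295) and Lhx3 (1.02 ± 0.509). Tlx3 overlapped Evx1 there, and Mnx1 overlapped Lhx3. Otp thus led in WT, and in TKO stood below Pou4f1, Lhx1, Lhx5 and Tlx3. At D6 Pou4f1 (23.8 ± 2.27 TPM) and Lhx5 (19.8 ± 4.08) overlapped at the top in TKO, and Otp (21.5 ± 3.30 TPM) led in WT, ahead of Lhx5 (10.3 ± 1.56). The 9 genes summed to 81.3 and 101 TPM in TKO D6 and 62.1 and 50.7 TPM in WT D6, and to 58.3 and 59.5 TPM in TKO D8 and 415 and 427 TPM in WT D8. The TKO D8 sum was below that of TKO D6, and the WT D8 sum above that of WT D6.

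Close relatives of the 9 genes and their cofactors were read from lists written from general knowledge. Of all genes, 41.3% were called at D6 (20.9% higher, 20.3% lower) and 67.5% at D8 (35.8% higher, 31.8% lower). Of 13 paralogs, 9 were higher and 0 lower in TKO at D6 (median log2 fold change 1.52), and 2 were higher and 8 lower at D8 (median -0.70). Evx2, the relative of Evx1, stood at 1.06 ± 0.0762 CPM in TKO D8 and 12.4 ± 0.702 CPM in WT D8 (log2 fold change -3.54, adjusted p = 4.71e-09). Lhx4, the relative of Lhx3 in motor neurons, stood at 3.76 ± 0.0736 CPM in TKO D8 and 19.6 ± 2.04 CPM in WT D8 (log2 fold change -2.38, adjusted p = 1.29e-07). Tlx1 stood at 2.58 ± 0.103 CPM in TKO D8 and 9.84 ± 2.57 CPM in WT D8 (log2 fold change -1.93, adjusted p = 1.1e-05). Of 10 genes for LIM domain cofactors, 3 were higher and 6 lower in TKO at D8 (median -0.74). Ldb2, the relative of Ldb1, stood at 3.01 ± 0.111 CPM in TKO D8 and 0.149 ± 0.17 CPM in WT D8 (log2 fold change 4.33, adjusted p = 2.84e-06). Lmo1 and Lmo3, LIM-only proteins that compete for Ldb1, were lower in TKO (log2 fold change -2.47 and -2.42).

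Factors of neighbouring neuron classes were counted in the same way at D8, where 67.5% of all genes were called (35.8% higher, 31.8% lower). Of 17 ventral interneuron and motor neuron factors, 2 were higher and 12 lower in TKO (median -1.22), among them Tbx20, at 2.51 ± 0.0427 CPM in TKO D8 and 22.6 ± 4.07 CPM in WT D8. Foxd3, known in neural crest and a ventral interneuron class, went the other way, at 11.1 ± 1.54 CPM in TKO D8 and 1.18 ± 0.101 CPM in WT D8 (log2 fold change 3.22, adjusted p = 7.5e-10). Foxd3 is also known in pluripotent cells, and its levels were higher on the first days, at 43.9 and 44.3 CPM in TKO D0 and 18.2 and 23.0 CPM in WT D0, and at 34.4 and 31.3 CPM in TKO D2 and 44.6 and 47.9 CPM in WT D2, with 1.20 CPM or below in each D4 library. Of 16 dorsal and sensory neuron factors, 2 were higher and 9 lower (median -1.57), with Pax2, an inhibitory neuron factor, at 12 ± 0.522 CPM in TKO D8 and 83.0 ± 3.22 CPM in WT D8. Of 14 hypothalamic factors, 2 were higher and 9 lower (median -1.41), with Pou3f2, which acts beside Otp in neuroendocrine neurons, at 38.3 ± 1.23 CPM in TKO D8 and 244 ± 2.33 CPM in WT D8 (log2 fold change -2.67, adjusted p = 4.5e-12). Of 22 progenitor domain factors, 2 were higher and 16 lower (median -1.75), with Nkx6-1, which patterns motor neuron progenitors, at 8.02 ± 1.12 CPM in TKO D8 and 87.8 ± 14.3 CPM in WT D8.

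Genes for transmitters and peptides, which such factors are known to control, divided at D8 with 5 higher and 10 lower in TKO of 19 tested (median -0.99). Of all genes, 35.8% were higher and 31.8% lower on that day. Trh, the thyrotropin-releasing hormone gene, stood at 646 and 617 CPM in TKO D8, against 7.48 and 6.11 CPM in WT D8 (log2 fold change 6.54, SE 0.187, adjusted p = 1.17e-14). Trh was also higher in TKO at D6, at 40.4 ± 4.13 CPM in TKO D6 and 1.58 ± 0.595 CPM in WT D6. It was abundant in the stem cell cultures too, at 192 and 203 CPM in TKO D0 and 297 and 289 CPM in WT D0, and at D8 pluripotency genes were higher in TKO as well; which cells held Trh was not tested. Otp, which is required for hypothalamic Trh neurons in the mouse, was lower in TKO on both days. Slc32a1, the vesicular transporter of inhibitory transmitters, stood at 3.41 ± 0.0647 CPM in TKO D8 and 15.0 ± 1.02 CPM in WT D8 (log2 fold change -2.14). Slc18a3, the vesicular acetylcholine transporter of motor neurons, was chosen after its values were seen and stood at 2.94 and 2.97 CPM in TKO D8, against 9.53 and 11.1 CPM in WT D8 (log2 fold change -1.81, adjusted p = 4.05e-06).

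**Figure D4:**
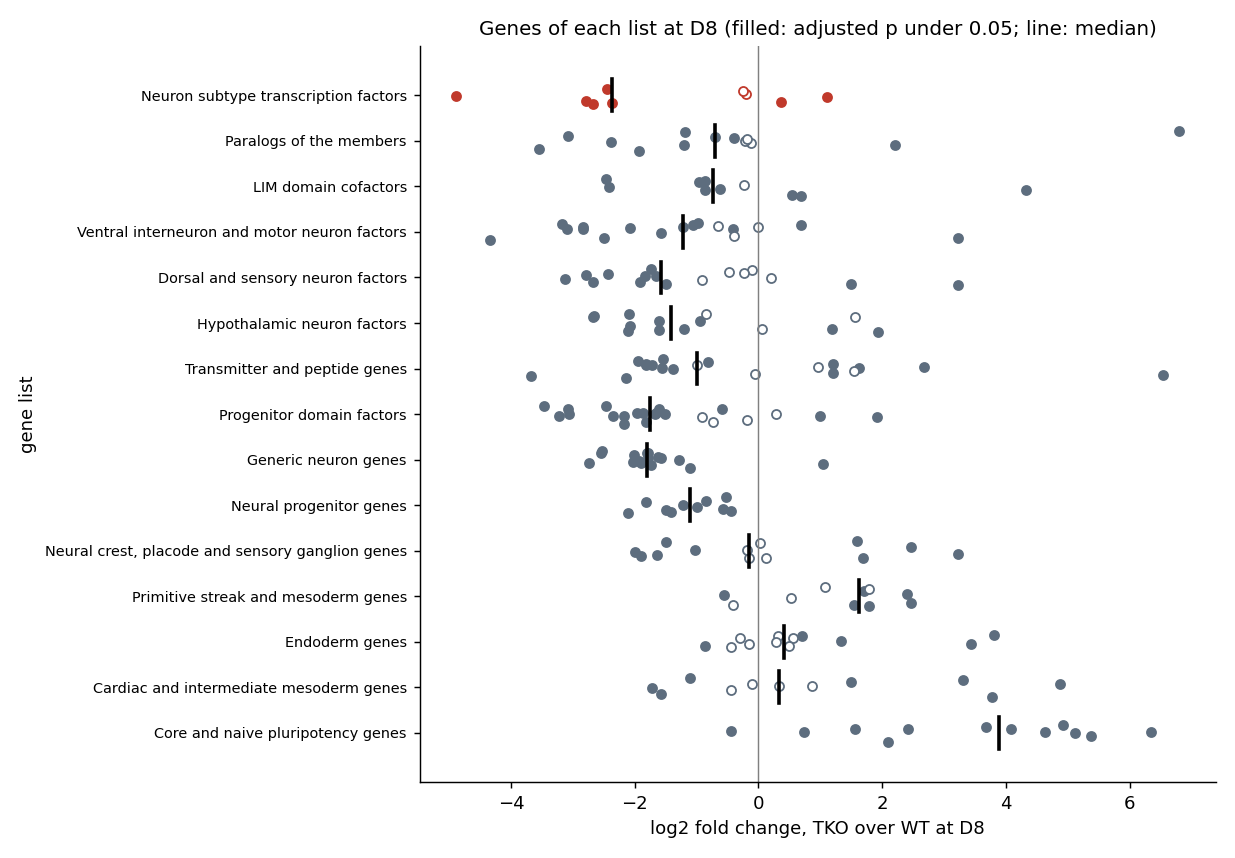
Log2 fold change of TKO over WT at D8 (x axis) for the tested genes of each list (rows), 1 point for each gene, filled where the adjusted p was under 0.05, and a line at the median. The medians lie at -2.36 for the 9 neuron subtype factors, -1.79 for generic neuron genes, -1.75 for progenitor domain factors and 3.88 for core and naive pluripotency genes. The paralog furthest to the right is Tlx2, with 0 counts in WT D8 and 0.594 and 0.306 CPM in TKO D8, so its place depends on the fit.

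Markers of neurons in general, of neural progenitors and of pluripotent cells moved at D8 as well. On that day 67.5% of all genes were called (35.8% higher, 31.8% lower). Of 16 generic neuron genes, 1 was higher and 15 lower in TKO (median -1.79), with Dcx, a protein of young neurons, at 125 ± 0.153 CPM in TKO D8 and 718 ± 7.88 CPM in WT D8. Among the genes of neural progenitors, 10 of 10 were lower in TKO (median -1.11), with summed levels of 1490 and 1490 CPM in TKO D8 and 3320 and 3390 CPM in WT D8. Of 12 core and naive pluripotency genes, 11 were higher and 1 lower (median 3.88), with sums of 1200 and 1140 CPM in TKO D8 and 302 and 277 CPM in WT D8. Sox2 is in this list and in that of the neural progenitors, so it was the lower gene. At D6, where Lhx1, Lhx5, Lhx3, Tlx3, Pou4f1 and Mnx1 were higher in TKO, 14 of the generic neuron genes were higher and 0 lower (median 0.84). On that day 10 of the 12 pluripotency genes were also higher and 1 lower in TKO (median 3.13). Their sums were 418 and 354 CPM in TKO D6 and 359 and 336 CPM in WT D6, which overlapped. These sums include Sox2 and weigh abundant genes most, so they need not follow the median. Of all genes, 20.9% were higher and 20.3% lower in TKO at D6.

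Several of the 9 genes are also known in endoderm or the primitive streak. Of all genes, 39.3%, 35.3%, 28.4%, 41.3% and 67.5% were called in TKO against WT from D0 to D8. Of 12 endoderm genes, 10 were higher in TKO at D0 (median 3.38), with sums of 305 and 335 CPM in TKO D0 and 25.3 and 32.6 CPM in WT D0. They stayed higher in TKO up to D6, with 11 of 12 higher at D2 (median 3.58), 9 at D4 (median 1.97) and 11 at D6 (median 2.42), and 0 lower. Their sums were 264 and 357 CPM in TKO D2 and 25.6 and 28.9 CPM in WT D2, 35.8 and 40.7 CPM in TKO D4 and 15.6 and 17.1 CPM in WT D4, and 58.4 and 74.9 CPM in TKO D6 and 17.5 and 13.1 CPM in WT D6. Much of the D0 and D2 sums in TKO came from Cubn. It held 138 and 162 CPM in TKO D0 and 4.46 and 6.85 CPM in WT D0. At D2 it held 207 and 286 CPM in TKO and 15.5 and 17.9 CPM in WT. At D8 the sums of the endoderm genes were 62.5 and 97.0 CPM in TKO and 86.0 and 56.6 CPM in WT, which overlapped, with 4 higher and 1 lower. Of 10 primitive streak and mesoderm genes tested at D8, 5 were higher in TKO and 1 lower (median 1.63), with sums of 29.3 and 39.7 CPM in TKO D8 and 21.7 and 19.7 CPM in WT D8. At D0 this list went the other way, with 0 higher and 7 lower in TKO (median -1.65), where 19.9% of all genes were lower. Its sums were 6.1 and 5.71 CPM in TKO D0 and 15.1 and 11.4 CPM in WT D0. In TKO 2 were higher and 1 lower at D2, 1 and 1 at D4, and 1 and 0 at D6. Of 11 cardiac and intermediate mesoderm genes tested, 4 were higher and 3 lower in TKO at D8 (median 0.34), and of 8 pancreas genes 2 had enough counts to be tested. Of 13 neural crest, placode and sensory ganglion genes, 4 were higher and 5 lower in TKO at D8 (median -0.16). None of them was at 0 counts in TKO D8 or WT D8, and their sums were 104 and 106 CPM in TKO D8 and 171 and 172 CPM in WT D8. At D8 the shares called in the streak, cardiac and neural crest lists lie near the 67.5% of all genes called on that day. The part of such cells in the levels of the 9 genes was not tested.

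The 9 genes differed in how they ran over the 20 libraries, which share genotypes, days and scaling. On the log2(CPM + 1) scale, Pearson's r between Otp, Isl1, Lhx1, Lhx5 and Evx1 ran from 0.93 to 0.98, while Pou4f1 with Mnx1 gave 0.81 and Lhx3 with Mnx1 0.67. Tlx3 ran apart, with 0.07 to 0.47 against the other 8. Among 12361 protein-coding genes, those most like Otp were Ache (r = 0.993), Asic1 (0.993) and Tbc1d30 (0.989). The most like Lhx1 were Plekha6 (0.995), Uncx (0.993) and Myt1 (0.990), and the most like Lhx5 were Scrt1 (0.994), Lhx4 (0.994) and Uncx (0.993). Isl1 ran most like Hcfc2 (0.969), Ache (0.963) and March4 (0.962), and the genes most like Evx1 included Vamp2 (0.975) and Lhx4 (0.970). The nearest gene was Nab1 for Pou4f1 (0.949), Trank1 for Mnx1 (0.970), Exoc6b for Tlx3 (0.889) and Cd209c for Lhx3 (0.821). These are descriptions over 20 libraries, without a test.

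Sharing of reads with other genes was small. At most 1.81% of the 31-base words of any of the 9 genes also occur in another gene, in Pou4f1, and 0 do in Lhx1, Lhx3 and Mnx1. Antisense genes overlap Evx1 (Evx1os), Lhx3 (Gm27196) and Lhx5 (Gm27199) in the annotation but have no transcript in the deposited tables, and the library kit was stranded while the strand setting of the quantification is not given in the sources used here. All counts of Lhx5, Tlx3, Mnx1 and Evx1 were on protein-coding transcripts, as were 98.2% of those of Otp, 99.6% of Lhx1, 85.2% of Pou4f1 and 77.0% of Isl1.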

How the data were processed

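Polyadenylated RNA libraries (TruSeq Stranded mRNA, per the labels' protocols) of TKO and WT cells, 2 per genotype and day, were deposited as tables of 119414 transcripts. The deposited estimated counts, not scaled to depth, and TPM values were made by the authors with kallisto, per the submitters' processing notes and the file headers. The notes also name Trim Galore 0.6.2 and GRCm38.

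Here transcripts were matched to GENCODE M21 genes (116728 matched; 2686 were left out), and the estimated counts of a gene were added up and then rounded, and its TPM added up. Totals per library were 26015282 to 38074768, and counting intervals (95%) cover counting error only. The edgeR 4.0.16 model held all 20 libraries, with TMM factors, a mean for each of the 10 groups, the filterByExpr low-count filter and the quasi-likelihood F test, and p-values were adjusted over 18555 genes by Benjamini-Hochberg; the common biological coefficient of variation was 0.0689 with 10 residual degrees of freedom. Standard errors were derived from the fold change and the F statistic. The fit was also run on simulated counts in which few genes changed, all in TKO D8. These data hold far more changes, so that run does not speak for the results here. Promoters were read from RefSeq on GRCm38.p6; protein sequences were not analysed here.

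The 9 genes, the lists and the alternatives were chosen with earlier results of these data known. Genes named from a list are among its 3 largest changes in that comparison (passing, and 1 CPM or more in a group), except Slc18a3 and, at D0, Dnmt3b, named beside the other DNA methyltransferases after its values were seen; likeness was sought among genes of 5 CPM or more in a group, and 1 of the nearest genes is not reported here. The alternatives were DESeq2 1.42.0, scaling by relative log expression, testing without the low-count filter, a replicate block, counts rebuilt from TPM and length, compared groups alone, adjusted p under 0.01, at least 2-fold and leaving out each library.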

Additional observations from a re-analysis of the deposited data

Results flagged for a closer look

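For 8 of the 9 genes the change at D8 against D6 differed between the genotypes by the edgeR interaction test (TKO minus WT, adjusted p under 0.05), where 49.9% of all genes passed. The difference in log2 fold change was -4.18 for Otp, -3.80 for Lhx1, -3.36 for Evx1, -3.30 for Lhx5, -3.17 for Isl1, -2.95 for Tlx3, -2.55 for Lhx3 and -1.30 for Pou4f1. The TKO libraries fell and the WT libraries rose for Otp, Lhx1, Evx1, Lhx5 and Isl1. Tlx3 rose in both. A negative difference that passed was not particular to the 9 genes. It was also found for 16 of 16 generic neuron genes and 18 of 22 progenitor domain factors.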

How the results depend on the processing

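Of 172 counts of called genes under the alternatives, 164 stayed within 1.5 times of the value reported and 8 did not, and no single gene turned its sign with a call. The moves concern D0. TKO against WT at D0 called 5 of the 9 genes, but 2 with the D0 groups fitted alone (Isl1 and Mnx1 missed the threshold, and Lhx1, with Otp and Lhx3, was under the low-count filter of those 4 libraries), 2 at an adjusted p under 0.01 and 3 at a change of at least 2-fold, and 2 to 5 when a library was left out. TKO D2 against D0 called 4, or 2 to 4 with a library left out. WT D2 against D0 called 0, or 1 with counts rebuilt from TPM (Pou4f1, adjusted p = 0.0379) and 0 to 1 with a library left out. The counts at D8 (7) and of the interaction (8) did not move when any library was left out. With the replicate number as a block, TKO against WT called 5, 6, 4, 7 and 7 of the 9 genes from D0 to D8 and the interaction 8, as without it. Deviations of same-numbered libraries correlated between -0.0268 and 0.0407 across genotypes of a day, so the numbers only name libraries and the block is no pairing. A group left with 1 library is assumed to vary like the others. Having 2 libraries per group limits every result, and Lhx3, Otp and Lhx1 before D6 rest on few counts. The cause of these changes was not tested.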
